A study of Papio anubis with 12 samples.

Results

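The group described here was the control (C) group of neonatal baboons: 4 animals of the 12 in the study, each with 1 array of RNA from the precentral gyrus, the strip of cerebral cortex that holds the primary motor area. The animals (Papio anubis) were born at about 182 days of gestation and were fed for 12 weeks a formula with 0% DHA and 0% ARA, the long chain polyunsaturated fatty acids that the other formulas of the study contained. C1 was a male of 83 days, C4 a male of 85 days, C2 a female of 85 days and C3 a female of 84 days. The record of C2 names only brain as its tissue, whereas the other records name the precentral gyrus, and the methods give the precentral gyrus for all animals. The arrays were chosen by their titles, no value took part in the choice, and no formula was compared with another. After the 62 control probe sets of the array had been set aside, 54613 of 54675 probe sets (ps) were ranked by the mean deposited signal of the 4 animals, and 41091 of them carried 1 gene symbol.

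The signal is a brightness on a linear arbitrary scale, set by the MAS5 software so that the trimmed mean of each array is 250. The probes were designed on human transcripts and were hybridised with baboon RNA, so a mismatched probe cannot be told apart from a scarce transcript in a dim ps. Among the 10523 genes with 2 or more ps, the brightest ps exceeded the dimmest by a median of 4.63-fold, and by more than 10-fold in 27.1% of genes. Ranks are therefore ranks of ps brightness and not of transcript copies. In each gene list the brightest ps stands for the gene. Each animal gave 1 piece of cortex, and fewer cells of a type cannot be told apart from less RNA per cell.

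Motor cortex holds excitatory projection neurons that use glutamate, inhibitory interneurons that use GABA, and glia. Astrocytes clear transmitter and supply metabolites, oligodendrocytes wrap axons in myelin, microglia are the resident immune cells, and endothelial and mural cells form the capillary wall. In the first months after birth cortical neurons extend processes and form synapses, while oligodendrocyte precursors mature and myelin is laid down.

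The arrays differed in the 3'/5' ratio, a control of RNA integrity and of labelling. The ratio of the 3' to the 5' control probes of beta-actin (ACTB) was 12.1 in C1, 5.15 in C2, 3.64 in C3 and 0.982 in C4. For GAPDH the ratio was 7.71 in C1, 3.12 in C2, 3.28 in C3 and 1.77 in C4. C1 had the highest ratio and C4 the lowest for both transcripts. The median signal was 149.9 in C1, 167.5 in C2, 108.8 in C3 and 126.1 in C4, and 2462 (C2) to 3865 (C3) ps reached a signal of 1000. Log2 signals correlated between animals with Pearson's r of 0.761 (C2 and C4) to 0.885 (C3 and C4) across ps, which share the array and are not independent replicates.

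The 1000 brightest ps carried 23.9% (C2) to 37.4% (C3) of the summed signal. A mean signal of 1000 or more, 4 times the scaling target, was reached by 3180 ps (5.82%), while the median ps stood at 144.3. The 100 brightest ps took 9.42% of the summed signal in C1, 8.52% in C2, 11.1% in C3 and 9.29% in C4. Of the 100 brightest ps of each animal, 77 (C1 and C4) to 90 (C1 and C2) were shared by a pair of animals, and 74 were shared by all 4. Of the 1000 brightest ps of each animal, 674 were shared by all 4. The top of the profile was thus largely but not wholly shared by the 4 animals.

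The 25 brightest genes, taken among ps with 1 symbol, had mean signals of 17829 to 33591. Ps with no symbol or several were left out, and the ps of the first gene, TUBA1B, had rank 2 among all ps. The cytoskeleton came first. TUBA1B, an alpha-tubulin of microtubules, had signals of 33957 in C1, 27418 in C2, 40386 in C3 and 32602 in C4. CFL1 (cofilin, which severs actin filaments) averaged 31219 ± 4433 (SD, n = 4), and TUBA1C, TUBB2A, TUBB3, ACTB and KIF5C, a kinesin motor of axonal transport, were also among the 25. Tubulins are near-identical paralogs, so a tubulin ps may take up the transcripts of its relatives. Of the 25 genes, 14 were read by _s_at or _x_at ps, the types left out in a setting described below.

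Of the 25 genes, 4 belonged to the pan-neuronal list (SNAP25, VSNL1, SYT1 and TUBB3). SNAP25, a SNARE protein of vesicle fusion, had signals of 23659 in C1, 27327 in C2, 23055 in C3 and 18798 in C4. Another bright SNAP25 ps, 202507_s_at, had 11704, 13623.5, 19593.1 and 21848.1 in C1 to C4, with C4 the highest and not the lowest. SYT1 (synaptotagmin, the calcium sensor of release) had 22506, 17814, 23689 and 19117 in C1 to C4. Calcium signalling was represented by VSNL1, a neuronal calcium sensor (mean 21585), and CAMK2N1, an inhibitor of the kinase CaMKII (mean 23073). BASP1 of growth cones (22264), the secreted glycoprotein OLFM1 (24922), CHN1, a Rac regulator of axon guidance (18036), and GPM6A of the neuronal membrane (20354) lay in the same range. The only gene of the astrocyte list among the 25 was SLC1A2, the main glutamate transporter (18568 in C1, 17638 in C2, 22574 in C3 and 14207 in C4). Genes used by most cells made up the remainder, among them EEF1A1 of translation elongation, TPT1, PPIA, UBB and GNAS. The least familiar of the 25, FBXL16, an F-box protein, was the gene of rank 3 (mean 27381). In 22 of the 25 genes C3 had the highest deposited signal, as it had in 17.8% of all ps. On that scale C3 also had the highest 90th percentile of signal over all ps, 724.0, against 628.2 (C2) to 704.0 (C4) in the others. The SD of log2 signal between animals after quantile normalization was 0.05 to 0.41.

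**Figure D1:**
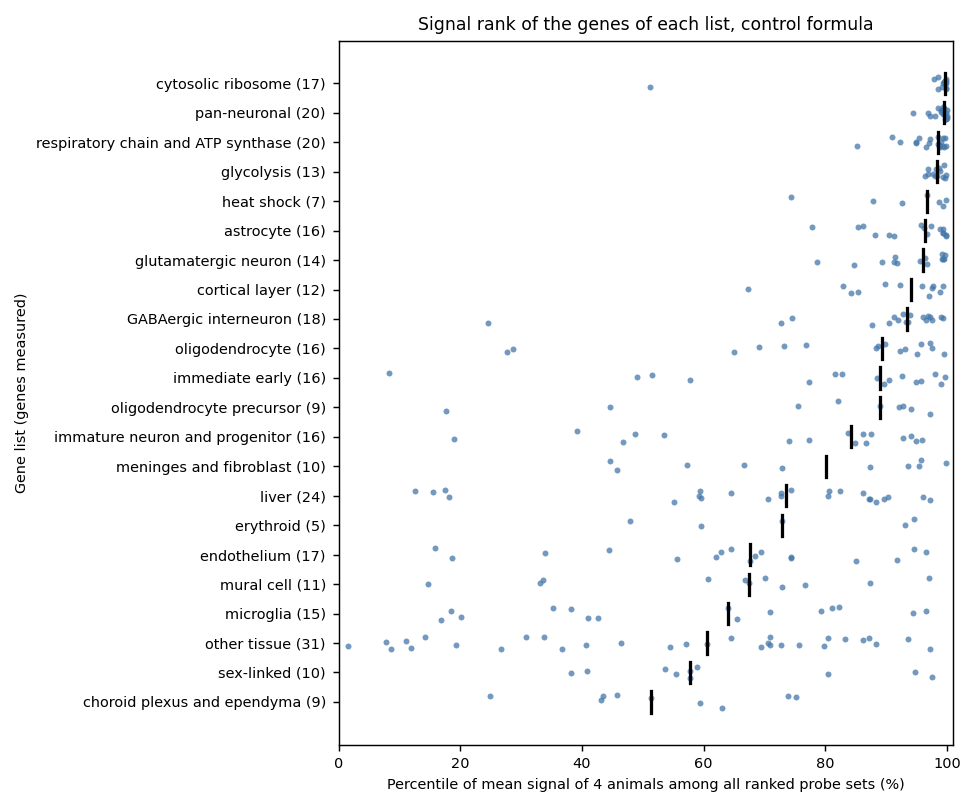
Percentile of the mean deposited signal of the 4 control animals among 54613 ps (x axis) for each gene of 22 lists (rows), 1 point per gene, with the black bar at the list median. Housekeeping and neuronal lists lie near the right edge, whereas microglial and endothelial genes run from below the 20th percentile to above the 95th and no choroid plexus gene passes 75.2.

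The lists were read against genes that cortex should hardly use. Of 35 genes typical of other tissues (muscle, pancreas, testis, skin, liver and others), 31 were measured and had a median percentile of 60.6, a rank that brain genes have to exceed to stand apart from them. Their 90th percentile of mean signal, 538.4, was used as a practical background, and 12.8% of all ps exceeded it. That share counts every ps, whereas each list gene is read by its brightest ps, so list counts and this share are not alike. Of the genes of other tissues, 6 are also in the liver list described below. The brightest of them, ALB (mean 1778), was high in C1 and C2 only. Above that level lay 20 of 20 pan-neuronal genes, 13 of 16 astrocyte genes, 10 of 16 oligodendrocyte genes, 2 of 15 microglial genes, 3 of 17 endothelial genes and 2 of 11 mural genes. The labelled tissue carried its defining neuronal markers in all 4 animals.

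Pan-neuronal genes had a median percentile of 99.5, and the lowest of the 20 stood at 94.4. The lowest were NEFH, the heavy neurofilament subunit of large mature axons (657.5 in C1, 656.8 in C2, 1575.3 in C3, 1239.3 in C4), and SYP (synaptophysin, of synaptic vesicles), with a mean of 1596. The light subunit NEFL was brighter than the heavy one, at 4174 in C1, 4800 in C2, 9092 in C3 and 11406 in C4, but they are read by different probes. GAP43, a growth cone protein of extending axons, averaged 5626 ± 1601 (SD, n = 4). RBFOX3, the nuclear antigen NeuN, averaged 4062.

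Glutamatergic genes had a median percentile of 96.0 (14 of 16 genes measured). NRGN (neurogranin, a calmodulin-binding protein of dendritic spines) was the brightest, with 5450 in C1, 4345 in C2, 17618 in C3 and 12450 in C4. GRIA2, the AMPA receptor subunit that limits calcium entry, ran the other way, with 8596 in C1, 6585 in C2, 5414 in C3 and 4324 in C4. C3 and C4 were therefore high for NRGN and low for GRIA2. CAMK2A, the CaMKII subunit of excitatory synapses, had 3949 to 5495 on its brightest ps, 213108_at, but 101.5, 176.9, 161.9 and 3248.7 in C1 to C4 on 207613_s_at. SLC17A7, the vesicular glutamate transporter of cortical neurons, had 1330 in C1, 1629 in C2, 5077 in C3 and 9204 in C4. The AMPA receptor subunits GRIA3 (mean 467.3) and GRIA1 (356.1) were the dimmest of the list, below the 538.4 of the background genes.

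The 12 genes of cortical layers had a median percentile of 94.0. LMO4, a transcriptional cofactor, had 4878 in C1, 3270 in C2, 5847 in C3 and 6418 in C4. PCP4, a calmodulin regulator of deep layer neurons, averaged 3448, and RORB, a nuclear receptor of layer 4, averaged 2026. FEZF2, the factor that specifies corticospinal neurons, the output cells of motor cortex, had 544.7 in C1, 119.3 in C2, 883.0 in C3 and 1032.6 in C4. C2 stood lowest for FEZF2. At the dim end BCL11B, which acts downstream of FEZF2 in mouse, was nearly level at 429.9, 404.1, 441.8 and 429.1 in C1 to C4, and NTNG2 averaged 240.8.

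Interneuron genes had a median percentile of 93.5 (18 of 19 measured). GAD1, which makes GABA from glutamate, had 4873 in C1, 3910 in C2, 7849 in C3 and 5612 in C4. The neuropeptide SST (somatostatin) had 3399, 2374, 5165 and 4220 in C1 to C4. Both varied little after normalization (SD of log2 signal 0.10 for GAD1 and 0.09 for SST). GAD2 averaged 1946. Of the markers of the main interneuron classes, PVALB of fast-spiking cells had 776.5 in C1, 368.3 in C2, 1393.7 in C3 and 1075.9 in C4. VIP, the peptide of disinhibitory interneurons, averaged 305.3. The dimmest were the homeobox factors of migrating interneurons DLX5 (24.4, 17.0, 123.9 and 81.5 in C1 to C4) and DLX2 (162.0, 624.2, 196.3 and 164.2 in C1 to C4), and for DLX2 only C2 passed the scaling target.

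Genes of immature neurons and progenitors had a median percentile of 84.3, and 5 of 16 exceeded the background level. SOX4 (mean 1303), a factor of newly made neurons, CD24 (1103) and TUBB2B (996.2), a tubulin of migrating neurons, led. DCX (doublecortin, of migrating neurons) had 727.0 in C1, 456.2 in C2, 576.6 in C3 and 318.5 in C4. EOMES, of intermediate progenitors, averaged 104.1. TOP2A, a topoisomerase of dividing cells, had 111.9 in C1 and 23.9, 27.7 and 30.9 in C2, C3 and C4. Of the other genes of dividing cells, BIRC5, MKI67 and CDK1 had means of 160.0 to 336.4, so that no marker of division reached the background level.

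Astrocyte genes had a median percentile of 96.5. After SLC1A2 came GLUL (glutamine synthetase), with 8945 in C1, 7184 in C2, 14574 in C3 and 11158 in C4, and ALDOC (aldolase C, an astrocytic glycolytic enzyme), with a mean of 5243. GLUL varied least among the genes of its list (SD of log2 signal 0.02). GFAP, the intermediate filament of astrocytes, had 956.2 in C1, 770.8 in C2, 574.4 in C3 and 630.9 in C4, and its other ps did not exceed 29.9 in any animal. GJB6, a gap junction protein (mean 482.6), and ALDH1L1, a folate enzyme (343.6), were the dimmest of the list.

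Myelin genes had a median percentile of 89.3 (16 of 17 measured). MBP, which compacts the myelin membrane, had 6936 in C1, 3113 in C2, 4706 in C3 and 8860 in C4. CNP, an enzyme of the inner myelin layers, had 3057, 1042, 1586 and 2074 in C1 to C4. MOBP, another basic protein of myelin, had 2908, 837.1, 1277 and 1969 in C1 to C4. On these ps C2 was the lowest animal, although a dimmer MBP ps, 225408_at, had 349.6, 630.3, 279.3 and 294.9 in C1 to C4, with C2 the highest. In deposited signal C2 was the lowest of the 4 in 10 of the 16 oligodendrocyte genes, against 22.0% of all ps. The highest was C1 in 7 and C4 in 8, against 27.4% and 17.2% of all ps. After quantile normalization C2 was the lowest in 9 of the 16, against 32.6% of all ps with a mean of 250 or more. The mean deviation of the list from the average of the 4 animals was 0.26 in C1, -0.64 in C2, -0.05 in C3 and 0.43 in C4 on the log2 scale. C2 was low in other lists as well, at -0.37 for glutamatergic, -0.32 for interneuron, -0.40 for microglial, -0.39 for endothelial and -0.43 for heat shock genes. ASPA, the enzyme that breaks down N-acetylaspartate, and the receptor GPR37 were dim in all animals (means 72.7 and 69.6). C2 is the animal whose record names brain only, and the part of the dissection in these values was not tested. PDGFRA, the growth factor receptor of oligodendrocyte precursors, led its list with 2100 in C1, 1224 in C2, 1906 in C3 and 1724 in C4. The precursor list had a median percentile of 88.9, with OLIG1 at a mean of 996.5 and the proteoglycan CSPG4 at 45.7.

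Microglial genes had a median percentile of 64.0, close to the genes of other tissues. Only CX3CR1 and LAPTM5 exceeded the background level. CX3CR1, the fractalkine receptor, had 1209 in C1, 810.7 in C2, 2359 in C3 and 1583 in C4. LAPTM5, a lysosomal protein, had 850.0, 780.7, 1202.7 and 1290.6 in C1 to C4, and P2RY12, a purine receptor of resting microglia, averaged 413.4. These were followed by 12 genes between means of 43.7 and 392.4. SPI1, the lineage factor PU.1 (mean 47.6), and C1QA, a complement subunit (43.7), were the dimmest, whereas C1QC, which encodes another subunit of the same complement protein, had 382.9, 112.9, 559.0 and 403.0 in C1 to C4.

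Vascular genes lay in the same range, with median percentiles of 67.6 for endothelium and 67.5 for mural cells. ITM2A, a membrane protein, had 1369 in C1, 710.2 in C2, 1796 in C3 and 2130 in C4. SLC2A1, the glucose transporter of the blood-brain barrier, had 1077, 657.3, 1329 and 1229 in C1 to C4, and TEK, the angiopoietin receptor, averaged 771.6. CLDN5, a tight junction protein of brain capillaries, averaged 303.7, and TIE1 (41.7) and NOSTRIN (48.1) were the dimmest. Of the mural genes, RGS5 of pericytes had 2124 in C1, 1590 in C2, 1641 in C3 and 1290 in C4, ACTA2 of smooth muscle averaged 544.7, and PDGFRB, the receptor that recruits pericytes, had 386.5, 368.8, 368.1 and 194.2 in C1 to C4. The dimmest mural genes were KCNJ8, a potassium channel (mean 84.9), and CNN1, a contractile protein (39.6). In deposited signal C1 was the highest animal in 6 and C2 in 5 of the 11 mural genes, against 27.4% and 37.6% of all ps.

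Tissue at the edge of a cortical sample can hold meninges, choroid plexus and blood. PTGDS, prostaglandin D synthase of the leptomeninges and of oligodendrocytes, had 6814 in C1, 4952 in C2, 21932 in C3 and 11814 in C4. The collagen COL1A1 had 1378, 693.0, 2679 and 394.3 in C1 to C4, and COL1A2 had 929.5, 1010.0, 2132.2 and 753.7. In deposited signal C3 was highest for all 3 genes and for 6 of the 10 measured genes of the list, against 17.8% of all ps. It was also highest for 18 of the 20 pan-neuronal genes, so this is not particular to the meninges list. After quantile normalization the list deviated by 0.52 in C3 and by -0.57 in C4. The proteoglycans OGN (mean 127.7) and LUM (123.4), made by fibroblasts, were the dimmest. No choroid plexus or ependyma gene exceeded the background level (0 of 9), and CLIC6, a chloride channel, led with a mean of 311.9. TTR (transthyretin), the most characteristic product of choroid plexus, had 139.5, 524.5, 47.1 and 45.8 in C1 to C4. Its highest animals, C2 and then C1, were also those of the liver products ALB and AHSG described below. Of the erythroid genes, HBB (beta-globin) had 1238 in C1, 784.9 in C2, 1177 in C3 and 1081 in C4. HBD (delta-globin) had 396.6, 337.4, 291.5 and 128.2 in C1 to C4, and ALAS2, which starts heme synthesis in red cells, averaged 135.6.

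**Figure D2:**
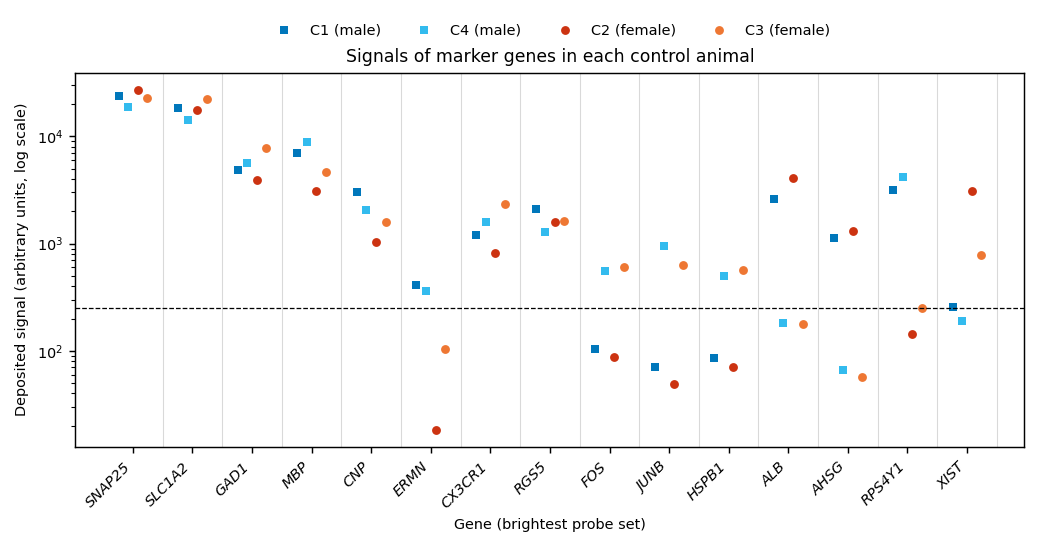
Deposited signal (log axis, arbitrary units) of 15 genes in the 4 animals, males C1 and C4 as squares and females C2 and C3 as circles, with the scaling target of 250 dashed. On the brightest ps, which is shown, SNAP25 and SLC1A2 are nearly level. FOS, JUNB and HSPB1 are high in C3 and C4, and ALB and AHSG are high in C1 and C2.

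Housekeeping lists stood as high as the neuronal ones. The median percentile was 99.6 for 17 cytosolic ribosome genes, 98.5 for 20 genes of the respiratory chain and ATP synthase and 98.4 for 13 glycolytic genes. RPS18 (mean 15938), the ATP synthase subunit ATP5F1B (12168) and GAPDH (14088) led these lists. The exception was RPLP2, a ribosomal stalk protein, with 13.6 in C1, 24.8 in C2, 342.3 in C3 and 215.8 in C4, although its partner RPLP1 averaged 2644. C3 was the highest animal for 17 of 17 ribosome genes and 13 of 13 glycolytic genes in deposited signal, where it was the highest for 17.8% of all ps. After quantile normalization it was the highest for 11 of the 17 ribosome genes and 9 of the 13 glycolytic genes, against 22.4% of all ps.

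The spread between animals depended on signal. The SD of log2 signal had a median of 0.57 over all ps. By mean signal the median SD was 0.49 below 64, 0.76 from 64 to 250, 0.46 from 250 to 1000, 0.32 from 1000 to 4000 and 0.25 above 4000. Bright genes were the most alike between animals. The 10 steadiest genes at or above 250 had SDs of 0.01 to 0.02 and included NUMA1 (311.5, 334.6, 255.1 and 280.3 in C1 to C4), the kinase MAP3K7, the chromatin protein HMGN2 and GLUL. They were picked as the lowest of 17139 ps.

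**Figure D3:**
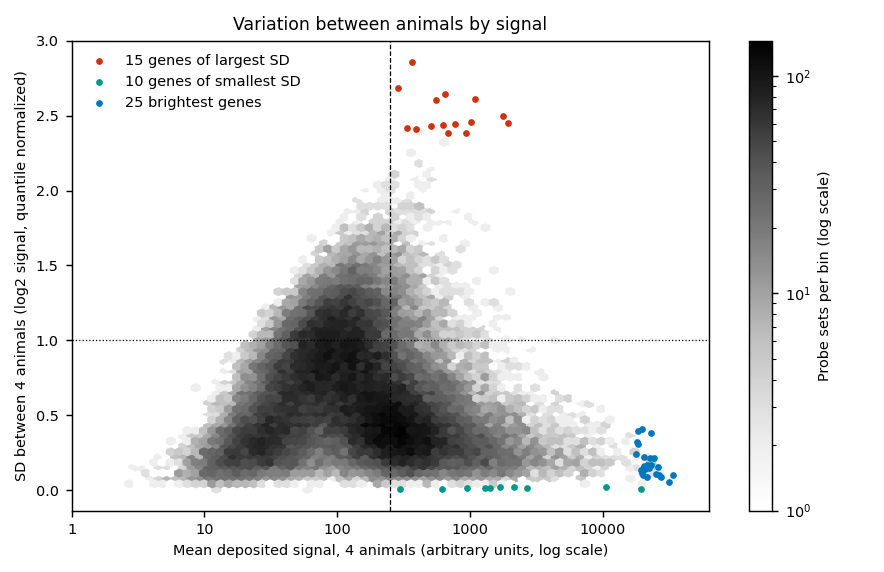
SD between the 4 animals of quantile normalized log2 signal (y axis) against mean deposited signal (x axis, log scale), grey bins counting ps, with the scaling target dashed and an SD of 1 dotted. The 25 brightest genes have SDs of 0.05 to 0.41, and the 15 most variable lie at 2.38 to 2.86.

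An SD above 1 at a mean signal of 250 or more was found in 1585 of 17139 ps (9.25%). C4 was the highest animal in 39.6% of these, compared with 20.7% of all ps at or above 250, and C2 the lowest in 49.2%, compared with 32.6%. Of the 24 possible orders of the animals, C2 below C1 below C3 below C4 was the most frequent among the variable ps (18.7%). It was held by 6.87% of all ps at or above 250. In this order the mean log2 signal of the 18 spike-in ps among the control probe sets declines. That mean was 12.7 in C2, 12.3 in C1, 12.0 in C3 and 11.1 in C4. The next most frequent order, C2 below C1 below C4 below C3, was held by 14.4% of the variable ps and 7.96% of all. It is the order of decline of neither the spike-in signal nor the ACTB or GAPDH 3'/5' ratio. C1 below C2 below C3 below C4, the order in which the ACTB 3'/5' ratio declines, was held by 12.8% of the variable ps and 5.02% of all. The order in which the GAPDH ratio declines, C1 below C3 below C2 below C4, was held by 3.09% of the variable ps and 2.89% of all. The parts of RNA integrity and of the spike-in signal in this spread were not tested.

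The 15 most variable genes had SDs of 2.38 to 2.86, and C4 was the highest animal for 14 of them. FBXL16, among the brightest genes by 1 of its ps, came first: another ps for the gene, 232409_x_at, had 6.4 in C1, 13.8 in C2, 9.7 in C3 and 1424.3 in C4, whereas 227641_at had 28339, 24205, 31241 and 25738. ATP2B2, a calcium pump of the plasma membrane, had 66.5, 93.8, 119.1 and 4109.7 in C1 to C4 on 211586_s_at and 5169, 4513, 9974 and 8183 on 204685_s_at. ARHGDIA had 5.9, 9.5, 16.9 and 1109.8 on 213606_s_at and 1741, 1395, 1861 and 1494 on 211716_x_at. Each of these genes was thus dim in 3 animals by one ps and bright in all 4 by another.

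GRIN1, the obligatory subunit of NMDA receptors, was read by 5 ps. Its most variable one, 205914_s_at, had 30.5 in C1, 29.1 in C2, 751.9 in C3 and 768.1 in C4, and its steadiest, 210782_x_at, had 451.1, 672.6, 397.1 and 677.3. NCDN (neurochondrin), RAB11B of recycling endosomes, HPCAL1, a calcium sensor, and AGAP3 also had a variable and a steadier ps. CDK5, the neuronal kinase, had 1 ps, with 39.4 in C1, 224.5 in C2, 1141 in C3 and 2651 in C4, and C1QTNF4 and CRIP2, with 1 ps each, were also highest in C4. NAPA and AP2A1, proteins of vesicle traffic, had no ps at or above 250 with an SD below 1. Over all genes, 3162 had 2 or more ps at or above 250. In 690 of them a ps had an SD above 1, and in 520 of those 690 (75.4%) another ps had an SD below 0.5.

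**Figure D4:**
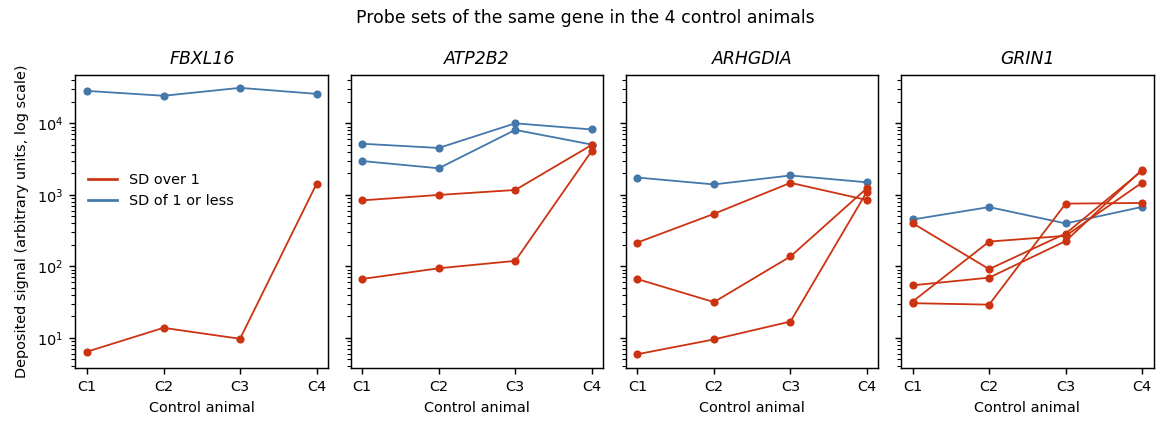
Deposited signal (log axis, arbitrary units) in the 4 animals of each ps with a mean of 250 or more, for FBXL16, ATP2B2, ARHGDIA and GRIN1, lines joining the values of 1 ps and red marking an SD above 1. Within each gene at least 1 ps is nearly level while others are lower in C1 and C2 than in C4.

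Activity-dependent and stress genes also differed between animals. EGR1, a transcription factor induced by neuronal activity, was bright in all (7439 in C1, 6670 in C2, 8357 in C3, 6902 in C4), as were HOMER1 (mean 3690) and EGR3 (2203). FOS had 104.5 in C1, 87.8 in C2, 603.4 in C3 and 552.2 in C4. JUNB, its AP-1 partner, had 71.1, 49.0, 628.5 and 949.2 in C1 to C4 (SD of log2 signal 2.04), the largest spread in the immediate early list. FOSB and CCN1 were dim throughout (means 27.0 and 140.4). Of the heat shock genes, HSP90AA1 (6061, 8840, 11376 and 14985 in C1 to C4) and HSPH1 (mean 4926) were bright, and HSPB1, a small heat shock protein, had 85.3, 70.8, 564.5 and 494.2 in C1 to C4. FOS, JUNB and HSPB1 were thus high in C3 and C4, while EGR1 and HOMER1 were not. These 3 were named as among the most variable genes of their lists. The order of JUNB, C2 below C1 below C3 below C4, was held by 18.7% of the variable ps and 6.87% of all at or above 250. That of FOS and HSPB1, C2 below C1 below C4 below C3, was held by 14.4% and 7.96%. The pattern is therefore not particular to activity or stress genes. The ACTB 3'/5' ratio was lower in C3 and C4 than in C1 and C2, but the GAPDH ratio of C3 (3.28) was not below that of C2 (3.12). The part of RNA integrity in these values was not tested.

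Liver products were the largest departure in the opposite sense. ALB (albumin) had 2635 in C1, 4121 in C2, 177.6 in C3 and 180.2 in C4, and AHSG (fetuin-A) had 1127, 1302, 57.2 and 66.4. These genes had been seen before a list of 27 liver genes was drawn up, so the list describes and does not test. C1 or C2 was the highest animal for 24 of the 24 measured genes (13 in C1 and 11 in C2), whereas C1 was the highest for 27.4% and C2 for 37.6% of all ps. SERPINA1 (antitrypsin) had 696.5 in C1, 1364.7 in C2, 130.4 in C3 and 487.6 in C4, and HPX (hemopexin) had 781.2, 484.8, 133.8 and 137.7. After quantile normalization the mean deviation of the liver list was 0.63 in C1, 0.73 in C2, -0.70 in C3 and -0.66 in C4. Within ALB, 3 of 4 ps had C1 and C2 as their highest animals by more than 4-fold, and 214837_at had 151.4, 208.9, 68.0 and 124.6 in C1 to C4. The source of this signal was not tested.

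**Figure D5:**
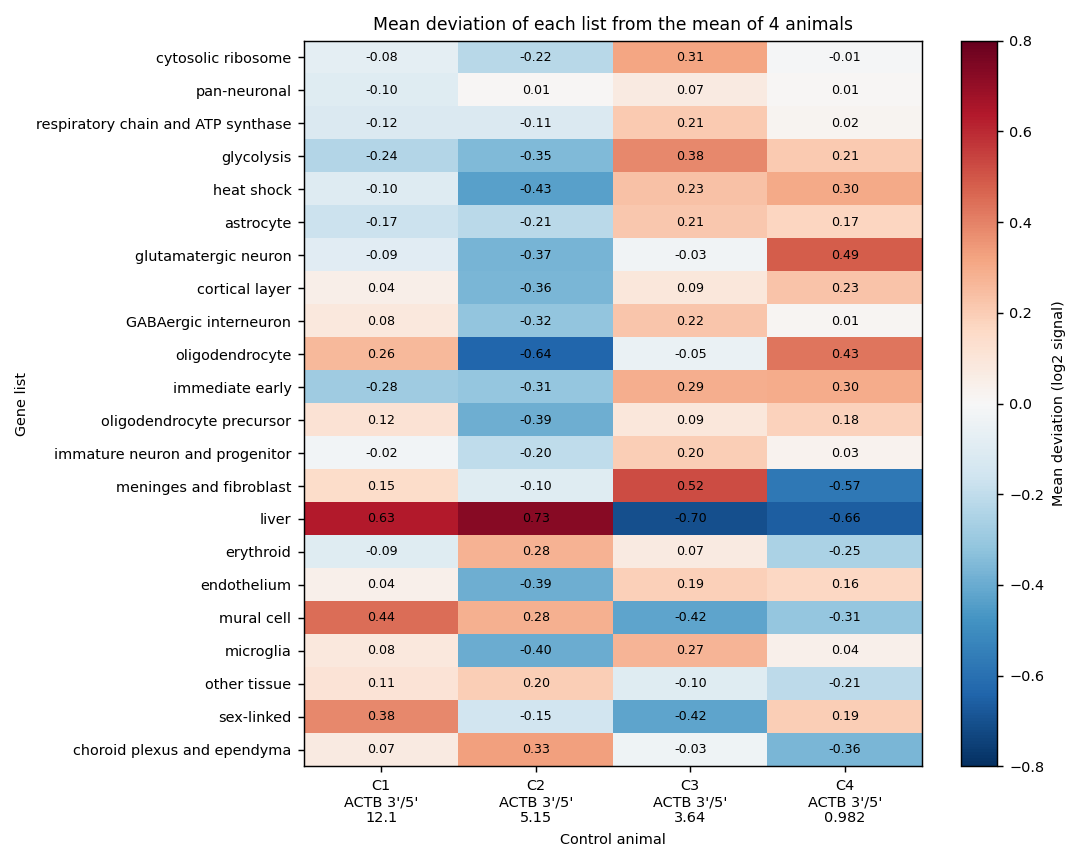
Mean deviation of each gene list (rows, ordered by median percentile) from the average of the 4 animals (columns), in quantile normalized log2 signal, red above and blue below, with the ACTB 3'/5' ratio under each animal. The liver list has the largest deviations, the oligodendrocyte list is lowest in C2 at -0.64, and pan-neuronal genes lie between -0.10 and 0.07.

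The sexes were compared as a check of the labels and as the only contrast within the group, with 2 males against 2 females. No ps passed an adjusted p of 0.05 in limma (percent called 0), and 1409 ps (2.58%) had an unadjusted p under 0.05, with 711 higher in males and 698 lower. RPS4Y1, a ribosomal protein gene of the Y chromosome, had 3132 and 4193 in the males C1 and C4, against 144.7 and 248.3 in the females C2 and C3. Its difference of 4.16 ± 0.46 (log2, SE) was the first in rank, with an adjusted p of 0.946 by limma. XIST, the RNA that silences an X chromosome in female cells, had 20.7 and 59.7 in the males C1 and C4, against 838.5 and 603.1 in the females C2 and C3 on 214218_s_at, a difference of -3.87 ± 0.69 that was second in rank. That XIST ps was picked by its p-value in this same comparison, so it is no separate check of the labels. The brightest XIST ps, 221728_x_at, had 253.6 and 188.2 in the males C1 and C4, against 3111.2 and 777.1 in the females C2 and C3. Its difference of -2.95 ± 0.76 was of rank 53. On the RPS4Y1 ps and the brightest XIST ps the labels of sex matched in all 4 animals.

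The other sex-linked genes were dim. Over all ps, the values of the sexes did not overlap in 28.2%. Of the 9 Y-linked genes measured, 4 had both males above both females (RPS4Y1, EIF1AY, USP9Y and ZFY), where 13.3% of all ps did, and of the 8 XIST ps, 3 had both males below both females, where 14.9% of all ps did. Another XIST ps, 235446_at, ran the other way, with 263.8 and 298.3 in the males C1 and C4, against 105.4 and 202.1 in the females C2 and C3. EIF1AY, a translation initiation factor, had 153.4 and 188.6 in the males C1 and C4, against 18.4 and 43.7 in the females C2 and C3. For DDX3Y, KDM5D, UTY, TXLNGY and PRKY the sexes overlapped. The remaining genes with the smallest p-values were VMA21, an assembly factor of the proton pump (32.0 and 35.8 in the males C1 and C4, against 2.0 and 1.7 in the females C2 and C3), CYP19A1, the aromatase that makes estrogen (137.7 and 100.7 in males, against 6.1 and 2.9 in females), and NRP1, a semaphorin receptor (4.7 and 1.9 in males, against 65.0 and 51.8 in females). All of these lay below the scaling target and none passed the adjusted threshold. An exact permutation test of 2 against 2 animals cannot reach a two-sided p of 0.05, since its smallest value is 1 in 3.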

How the data were processed

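Signals of 12 human HG-U133 Plus 2.0 arrays were deposited, and the 4 control arrays were used here. Per the labels, the authors computed each intensity with MAS5 and scaled each array to a trimmed mean; the trimmed mean over the 4 arrays (2% from each tail) came to 250. Ranking used the deposited intensity. For the spread between animals and for the sexes, log2(signal + 16) was quantile normalized over the 4 arrays, and the SD has n = 4. Males were tested against females with limma 3.58.1 (trend) in R 4.3.3, with Benjamini-Hochberg adjustment over 54613 ps, after the script had been tested on simulated data; other steps used Python 3.11.15, numpy 2.4.6 and pandas 2.3.3. Symbols came from GEO's platform annotation, in which 1801 ps had several and 11721 none. Lists held 338 genes, of which 302 had a ps with 1 symbol, and an added liver list held 27, of which 24 did. Members and lists were chosen with earlier results of these data known. Only ps with 1 symbol could name a gene. Genes were named by rule: the 25 brightest; the 3 brightest and 2 dimmest of each list; the 15 most and 10 least variable at 250 or more; sex-linked genes and the 5 smallest p-values; and the 2 most variable genes of the immediate early, erythroid, heat shock and meninges lists. Other genes named beside them were chosen after their values were seen. Animals are the replicates. Array number limits the precision.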

Additional observations from a re-analysis of the deposited data

Results flagged for a closer look

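In each group of 4 values, 1 animal was set apart where its gap to the nearest of the others as a share of the whole range exceeded Dixon's 95% limit for 4 values (on deposited log2(signal + 16) for ps, on mean deviations after quantile normalization for lists). Chance flags about 1 in 20 such groups, and 8 of 156 named ps (5.13%) were flagged, so the number is near that share. C4 was apart and higher for FBXL16 232409_x_at (0.931), ARHGDIA 213606_s_at (0.897) and ATP2B2 211586_s_at (0.874), each of which has a steadier ps described above. C2 was apart and higher for DLX2 (0.862) and for PRLR, the prolactin receptor (0.910; 154.3, 360.4, 166.9 and 163.0 in C1 to C4). C1 was apart and higher for TOP2A (0.861), C4 apart and lower for PDGFRB (0.928), and C1 apart and lower for CA1, an erythroid carbonic anhydrase (0.889; 520.5, 1006.1, 1028.0 and 953.9 in C1 to C4). Of the 22 lists, the oligodendrocyte precursor list was flagged, with C2 apart and lower (0.840) at a mean deviation of -0.39, against 0.12 in C1, 0.09 in C3 and 0.18 in C4. The causes of these gaps were not tested.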

How the results depend on the processing

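No paired analysis was possible because the labels pair no male with a female. The median SD of 0.57 became 0.69 with a pseudocount of 1, 0.49 over ps above the median signal and 0.47 to 0.54 with 1 animal left out. The count of variable ps at 250 or more (1585) ran from 1233 to 1866 with 1 animal left out. Ps at 1000 or more numbered 2969 to 3463 and the share of the 100 brightest was 9.12% to 9.95% with 1 animal left out. List ranks depended most on the choice of ps. With the median over all ps of a gene, the median percentile was 97.1 for pan-neuronal, 90.9 for interneuron, 93.0 for astrocyte, 65.0 for oligodendrocyte, 42.7 for microglial, 53.5 for endothelial, 43.8 for mural and 48.0 for other tissue genes. With _s_at and _x_at ps left out it was 99.1 for pan-neuronal, 94.0 for astrocyte, 41.8 for microglial and 47.5 for other tissue genes. Ranking by the median animal moved other tissue genes to 62.8. With 1 animal left out the ranges were 99.4 to 99.5 (pan-neuronal), 95.3 to 96.3 (glutamatergic), 93.2 to 93.9 (interneuron), 96.5 to 96.8 (astrocyte), 88.5 to 90.4 (oligodendrocyte), 51.3 to 70.5 (microglial), 65.0 to 70.0 (endothelial), 65.2 to 72.2 (mural) and 51.5 to 63.3 (other tissue). Microglial genes ranked above other tissue genes in the main ranking and below them under both other choices of ps and without C3 or C4, and mural genes ranked below them with the median over all ps. The mural deviations, 0.44 and 0.28 in C1 and C2, became 0.21 and -0.01 with _s_at and _x_at ps left out. Between the sexes, the number of ps past an adjusted p of 0.05 in limma was 0, 1 with no further normalization (RPS4Y1, adjusted p = 0.00751) and 0 with any 1 animal left out. The count at an unadjusted p under 0.05 was 346 over ps above the median signal, 879 with age as a covariate and 1352 to 3834 with 1 animal left out, the highest without C3. Directions turned with 1 animal left out for the Y-linked genes in which the sexes overlapped. The difference ran from -0.24 (without C3) to 1.19 for DDX3Y. For KDM5D it ran from -0.73 (without C4) to 0.89, and it was also below 0 without C2 (-0.20). For UTY it ran from -0.53 (without C4) to 0.63, and it was also below 0 without C3 (-0.37). For TXLNGY it ran from -1.43 to 0.10 (without C4), and for PRKY from -1.51 to 0.81 (without C4). With 1 of a sex left, the lone animal is assumed to vary like the others. The causes of these shifts were not tested.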
